A study of Mus musculus with 96 samples.

Results

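The BCL2 family members described here are 10 genes for apoptosis regulators that are not among the family's usual p53 target genes. They were picked by gene name in a table of RNA-seq counts, one row per gene, and make up 10 of its 54150 features. Bcl2, Bcl2l1 (BCL-XL), Bcl2l2 (BCL-W) and Mcl1 encode anti-apoptotic proteins, Bak1 and Bok encode effectors, and Bcl2l11 (BIM), Bid, Bad and Bmf encode BH3-only proteins. The counts come from 96 samples of C2C12, an established mouse myoblast line, in 35 conditions that combine a cell state, an expressed protein and a treatment of mitochondria. The members were followed through all 35 conditions to show how their transcripts differed with the inhibitor, with the protein expressed and with the state of the cell.

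BCL2 family proteins meet at the mitochondrial outer membrane. Anti-apoptotic members bind effectors and BH3-only proteins, BH3-only proteins relay stress signals by engaging the other members, and active effectors permeabilize the membrane and release cytochrome c, which leads to caspase activation. BAD and BIM are classically held in check by growth factor signalling, and MCL-1 is a short-lived protein that is regulated largely after transcription. The measurements below are of transcripts, not of proteins or of cell death.

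Proliferating myoblasts were stable lentiviral lines with a doxycycline-inducible gene, all kept in 300 ng/ml doxycycline and high serum. The control line expressed luciferase. The others expressed LbNOX, a bacterial water-forming NADH oxidase that acts in the cytosol, mitoLbNOX, the same enzyme directed to the mitochondrial matrix, or NDI1, a yeast NADH dehydrogenase that piericidin does not inhibit. These myoblasts received DMSO, 0.5 µM piericidin (a complex I inhibitor), 0.5 µM antimycin (complex III) or 1 µM oligomycin (ATP synthase) for 10 hr, or 20 µg/ml chloramphenicol, which blocks mitochondrial translation, or DMSO for 48 hr. Per the study's text and legends, the 10 hr treatments were in medium without pyruvate or uridine, whereas the chloramphenicol experiment had uridine added. Oligomycin was given to the luciferase and LbNOX lines, antimycin also to mitoLbNOX, and NDI1 cells received piericidin or DMSO. Day 1 cells were untransduced and had been in low serum for 24 hr. Myotubes had been in low serum for 4 days, and were untransduced or carried an adenovirus for GFP alone or for GFP together with LbNOX. The first are called GFP myotubes here and the second LbNOX myotubes. Myotubes were treated for 10 hr with the same inhibitors, with 0.5 µM BAM15 (an uncoupler), at 5% oxygen, or with oligomycin combined with piericidin, BAM15 or 5% oxygen. Cells at 5% oxygen were moved there overnight before the treatment, so their exposure to it was longer than 10 hr. Groups held 3 samples, or 2 for NDI1 myoblasts, GFP myotubes and all 48 hr conditions. Nothing in the sources used here says that the samples of a group came from separate experiments, so p-values measure the spread between samples, which may be technical.

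Libraries held 6458295 to 15366745 counts. Each library of a transduced line held at least 372 counts of its own transgene, and 0 libraries held a transgene they should lack. LbNOX and mitoLbNOX share 1 row of the counts, in which the lines did not overlap within a treatment. With DMSO for 10 hr the LbNOX myoblasts held 9805 to 13457 counts and the mitoLbNOX myoblasts 20419 to 24020, and with antimycin 2189 to 3084 and 6152 to 8943. Muscle identity followed the labels. Myog, a myogenic transcription factor, stood at 0.43 ± 0.29 CPM in luciferase myoblasts with DMSO, 1450 ± 70.5 in day 1 cells and 746 ± 40.6 in myotubes (SD, n = 3). The summed level of 5 cell cycle markers (Mki67, Top2a, Ccnb1, Cdk1 and Pcna) was 1244 to 1291 CPM in those myoblasts, 220 to 251 in day 1 cells and 148 to 170 in myotubes. Other myotube markers were split. In day 1 cells Acta1 and Ckm were near the myotube level, at 5912 and 572 CPM against 6106 and 549 in myotubes. Tnnt3 was lower in day 1 cells, at 534 CPM against 1071. Of markers for other cell types, Epcam and Adipoq had at most 3 and 2 counts in any library, Ptprc at most 10 and Pecam1 at most 40.

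Fold changes are log2 values and stand with their standard error after ±, whereas mean levels stand with the SD. Levels are CPM, counts scaled to library size, after TMM scaling over the 96 samples. A gene is called changed where edgeR's quasi-likelihood test gave an adjusted p under 0.05 over all genes of the fit. Each sample's label holds a code from A01 to H12, which was read as a plate well although the labels do not explain it, and plate position here means an outer or inner well on that reading. In bulk RNA, fewer cells with a transcript and less transcript per cell cannot be told apart. All 10 members passed the minimum of 16 counts in the fits that included myotubes or day 1 cells. In the myoblast fits 9 passed and Bmf did not. In the fit that joins the states Bmf passed only through the low-serum groups, where it is high, so no test of it against myoblasts is given.

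RefSeq lists 2 promoter windows for Bcl2l11, the member with the widest range of levels among the 9 whose lowest mean was above 0. The first is shown because it holds a motif match, and the second, before a start further into the gene (chr2:128127325-128127574), holds none of either motif searched. The sequence is the 250 bases before the transcription start at chr2:128125788-128126037 (GRCm38.p6, plus strand, RefSeq), with a match to the forkhead (FOXO) motif GTAAACA in capitals.
Bcl2l11 promoter: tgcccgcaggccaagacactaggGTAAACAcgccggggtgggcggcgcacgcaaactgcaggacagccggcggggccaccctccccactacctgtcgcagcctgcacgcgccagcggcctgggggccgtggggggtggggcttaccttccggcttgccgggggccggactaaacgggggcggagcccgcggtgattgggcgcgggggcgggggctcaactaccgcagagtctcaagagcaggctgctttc
The motif begins 227 bases before the start. FOXO factors are known activators of Bcl2l11, and growth factor signalling keeps them out of the nucleus. Among the 16 promoter windows that RefSeq lists for the 10 members, each from 250 bases before to 50 after a start, this was the only window with the 7 letters on either strand, against 3.65% of all 32851 windows. The C/EBP-ATF composite motif TGATGNAA, which ATF4 binds with C/EBP partners, was in 0 of the 16 windows and in 3.97% of all. These are matches of letters and were not tested as binding sites.

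Without inhibitor, the members differed between the cell states. Bcl2l11 was higher in day 1 cells and myotubes than in proliferating luciferase myoblasts, Bok, Bid and Bad were lower, and Bcl2l1 was lowest in day 1 cells. Of the 9 members other than Bmf, 6 were called in day 1 cells against myoblasts, when 63.6% of all tested genes were called, 6 in myotubes against myoblasts (69.4% of all genes) and 4 in myotubes against day 1 cells (35.6%). The median log2 fold change of these 9 was -0.28, 0.09 and 0.04 in the 3 comparisons, and that of all genes was 0.00, 0.04 and 0.00.

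Bcl2l11 (ENSMUSG00000027381, chr2:128126038-128162547, plus strand, GRCm38) was at 8.73, 9.11 and 9.37 CPM in myoblasts, at 26.3, 31.3 and 28.8 in day 1 cells, and at 17.5, 22.1 and 18.4 in myotubes. The groups did not overlap, and day 1 cells were highest. The log2 fold change over myoblasts was 1.67 ± 0.12 (adjusted p = 1.13e-12) in day 1 cells and 1.13 ± 0.13 (adjusted p = 5.5e-09) in myotubes, and myotubes were below day 1 cells by -0.54 ± 0.12 (adjusted p = 0.000556).

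Bmf (ENSMUSG00000040093, chr2:118528757-118549687, minus strand), a BH3-only gene linked to loss of attachment and to cytoskeletal stress, had 10, 7 and 6 counts in the myoblasts, or 0.93, 0.49 and 0.56 CPM. It was at 5.46, 6.29 and 6.17 CPM in day 1 cells and at 4.63, 6.60 and 6.34 in myotubes. Every low-serum sample was above every myoblast sample, given here as a description with no test. The 2 low-serum states differed by 0.01 ± 0.21 (adjusted p = 0.979).

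Bok (ENSMUSG00000026278, chr1:93685660-93695764, plus strand) moved the other way. This effector, a BAX and BAK homolog, was at 170, 182 and 179 CPM in myoblasts, at 104, 106 and 113 in day 1 cells and at 92.1, 86.5 and 81.4 in myotubes. The 3 states did not overlap. It was lower than in myoblasts by -0.71 ± 0.07 (adjusted p = 1.7e-10) in day 1 cells and by -0.99 ± 0.07 (adjusted p = 1.31e-13) in myotubes.

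Bcl2l1 (ENSMUSG00000007659, chr2:152780668-152831728, minus strand) was at 70.7, 56.0 and 61.1 CPM in myoblasts, at 48.2, 54.0 and 52.4 in day 1 cells and at 80.0, 83.6 and 80.9 in myotubes. Myotubes were above every other sample, with a log2 fold change of 0.42 ± 0.08 (adjusted p = 2.41e-05) over myoblasts and 0.70 ± 0.08 (adjusted p = 3.95e-08) over day 1 cells. The fall in day 1 cells against myoblasts, -0.28 ± 0.08 (adjusted p = 0.00346), was not called without the samples numbered 1 (-0.13, adjusted p = 0.232) or 3 (-0.25, adjusted p = 0.0609).

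Of the other members, Bid was lower than in myoblasts by -0.34 ± 0.07 in day 1 cells and by -0.42 ± 0.07 in myotubes. Bad was lower by -0.31 ± 0.09 and -0.28 ± 0.09, but both calls were lost without the samples numbered 2 (-0.22, adjusted p = 0.108, and -0.21, adjusted p = 0.126). The day 1 call was also lost without those numbered 1 (adjusted p = 0.0826) and with only the groups compared (adjusted p = 0.0617), and the myotube call without the count filter (adjusted p = 0.0673). Bak1 fell in day 1 cells, from 9.84 ± 0.64 to 6.04 ± 0.19 CPM (SD, n = 3), and was at 6.91 ± 1.52 CPM in myotubes, where its difference from myoblasts missed the threshold (adjusted p = 0.0545) except with only the groups compared (adjusted p = 0.048). The day 1 call was lost without the samples numbered 2 (-0.65, adjusted p = 0.0579) or 3 (-0.60, adjusted p = 0.0682). Mcl1 was higher in myotubes by 0.25 ± 0.11 (adjusted p = 0.0481) over myoblasts, a call lost in each fit with one replicate number left out (adjusted p from 0.107 to 0.161) and without the count filter (adjusted p = 0.312). It was higher in myotubes than in day 1 cells by 0.38 ± 0.11 (adjusted p = 0.00722), which was lost without the samples numbered 1 (adjusted p = 0.0507) or 3 (adjusted p = 0.16). Bcl2 and Bcl2l2 were called in none of the 3 comparisons by edgeR, with adjusted p from 0.0809 to 0.776, though Bcl2l2 in myotubes against myoblasts was called with plate position (0.71, adjusted p = 0.0221). The states also differ in transduction, doxycycline, serum and density, and the cell cycle markers fell between them as given above. These factors cannot be told apart from cell state here.

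Compared per length, as CPM per kilobase of the longest coding transcript, Bok was the highest member in each of the 3 states. In myoblasts with DMSO the order ran from Bok at 121 through Bid at 37.2, Bcl2l1 at 24.4, Bad at 22.1, Mcl1 at 7.09, Bak1 at 4.12, Bcl2l11 at 1.80, Bcl2l2 at 1.38 and Bcl2 at 0.46 to Bmf at 0.14. In myotubes Bcl2l1, at 31.7, stood above Bid, at 26.99, and Bcl2l11, at 3.84, above Bak1, at 2.90. The longest annotated transcript need not be the one that is expressed, so neighbours in this order were not tested.

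In luciferase myoblasts, each inhibitor gave the members a different pattern. All 3 lowered Bad. Piericidin lowered Bcl2l1 and oligomycin raised it. Piericidin and antimycin lowered Bcl2l11, piericidin and oligomycin lowered Bok, and oligomycin raised Bid and Bcl2l2. Of 9 members tested, 6 were called with piericidin (1 higher, 5 lower), when 61.7% of all genes were called (30.9% higher, 30.8% lower). With antimycin 4 were called (1 higher, 3 lower), against 63.2% of all genes (32.1% higher, 31.1% lower), and 7 with oligomycin (4 higher, 3 lower), against 50.8% (24.5% higher, 26.3% lower). With 9 members, these shares were not tested against the background, and nothing particular to the family is read from them. The members' median log2 fold change was -0.23, -0.09 and -0.27, and that of all genes was 0.00, 0.00 and -0.01. The 3 comparisons share their DMSO samples.

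**Figure D1:**
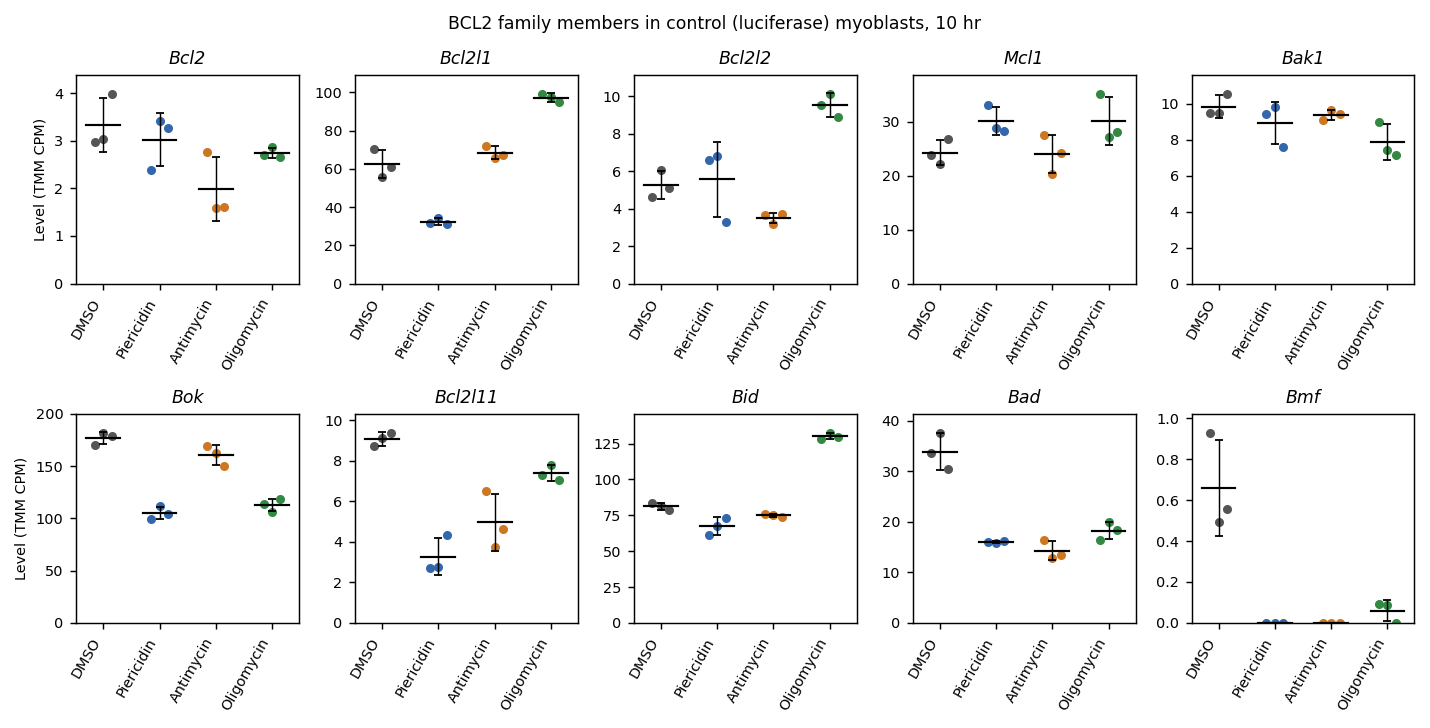
Level (TMM CPM) of the 10 members in luciferase myoblasts after 10 hr of DMSO, piericidin, antimycin or oligomycin. Points are samples, horizontal lines are means and error bars are SD (n = 3). Bad fell with every inhibitor, whereas Bcl2l1 was lowest with piericidin (mean 32.4 CPM) and highest with oligomycin (97.2 CPM).

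Bcl2l1 was at 31.8, 34.3 and 31.1 CPM given piericidin, at 72.2, 65.7 and 67.4 with antimycin and at 99.4, 97.5 and 94.8 with oligomycin. The piericidin samples were below all DMSO samples and the oligomycin samples above them. The log2 fold changes were -0.91 ± 0.07 (adjusted p = 1.72e-12) with piericidin and 0.65 ± 0.07 (adjusted p = 1.57e-09) with oligomycin. The antimycin samples overlapped DMSO, and that call, 0.17 ± 0.07 (adjusted p = 0.0257), was lost in each fit without one replicate number (adjusted p from 0.0548 to 0.428), when only the groups compared were fitted (adjusted p = 0.179) and without the count filter (adjusted p = 0.204).

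Mcl1 (ENSMUSG00000038612, chr3:95658788-95663176, plus strand) was at 23.9, 22.1 and 26.7 CPM with DMSO, at 33.1, 28.9 and 28.3 with piericidin and at 35.2, 27.1 and 28.0 with oligomycin. Both sets lay above DMSO, by 0.35 ± 0.13 (adjusted p = 0.0189) and 0.33 ± 0.13 (adjusted p = 0.0302). Without the samples numbered 1 both calls were lost, at 0.24 (adjusted p = 0.228) and 0.19 (adjusted p = 0.379). The piericidin call was also lost without those numbered 2 (adjusted p = 0.0767), and the oligomycin call without the count filter (adjusted p = 0.0827) and with plate position (adjusted p = 0.0557).

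Bcl2l2 (ENSMUSG00000089682, chr14:54883377-54888234, plus strand), which overlaps the gene Gm20521, was low throughout. It was at 4.64, 6.08 and 5.10 CPM with DMSO, and reached 9.54, 10.1 and 8.88 with oligomycin, a log2 fold change of 0.86 ± 0.20 (adjusted p = 0.000782). With antimycin it was at 3.65, 3.18 and 3.69, a fold change of -0.55 ± 0.22 (adjusted p = 0.0335) that was not called with plate position in the model (-0.32, adjusted p = 0.256), without the count filter (adjusted p = 0.17) or without the samples numbered 1 (-0.69, adjusted p = 0.0637) or 2 (-0.41, adjusted p = 0.281). Bcl2 (ENSMUSG00000057329, chr1:106538178-106714274, minus strand) had 32, 43 and 43 counts with DMSO and was called with 0 of the 3 inhibitors by edgeR. Its log2 fold changes were -0.10 ± 0.34, -0.68 ± 0.35 and -0.27 ± 0.34.

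Among the effectors, Bok fell to 99.8, 112 and 104 CPM with piericidin and to 114, 106 and 119 with oligomycin. Both sets lay below all DMSO samples, by -0.72 ± 0.06 (adjusted p = 2.89e-11) and -0.64 ± 0.06 (adjusted p = 5.22e-10). With antimycin Bok was at 169, 163 and 151 CPM, and the difference of -0.09 ± 0.06 was not called (adjusted p = 0.183). Bak1 (ENSMUSG00000057789, chr17:27019810-27029009, minus strand) was called with oligomycin alone, at -0.31 ± 0.13 (adjusted p = 0.0495). That call was lost with the alternative size factors, without the count filter, with only the groups compared, with DESeq2, with a replicate block (adjusted p = 0.0595) and with any replicate number left out, with adjusted p from 0.0587 to 0.428.

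Bad (ENSMUSG00000024959, chr19:6941861-6951899, plus strand), whose product binds BCL-2 and BCL-XL, was at 33.6, 37.6 and 30.3 CPM with DMSO. It was at 16.02, 15.87 and 16.26 CPM with piericidin, at 16.4, 12.9 and 13.5 with antimycin and at 16.5, 19.9 and 18.3 with oligomycin. Every treated sample was below every DMSO sample. The log2 fold changes were -1.04 ± 0.09 (adjusted p = 6.83e-11), -1.20 ± 0.10 (adjusted p = 3.68e-12) and -0.88 ± 0.09 (adjusted p = 2.48e-09). Bad overlaps Gpr137 on the opposite strand, which averaged 132 counts, and since the libraries carry no strand, reads of the overlap cannot be assigned with certainty.

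Bcl2l11 was at 2.73, 2.75 and 4.33 CPM with piericidin, at 6.52, 3.74 and 4.61 with antimycin and at 7.29, 7.81 and 7.03 with oligomycin, all below DMSO. The log2 fold changes were -1.43 ± 0.24 (adjusted p = 5.8e-06), -0.82 ± 0.23 (adjusted p = 0.0024) and, not called, -0.28 ± 0.22 (adjusted p = 0.288).

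Bid (ENSMUSG00000004446, chr6:120891930-120916853, minus strand), whose product links death receptors to mitochondria, rose with oligomycin from 83.8, 81.2 and 79.0 CPM to 128, 133 and 130. The groups did not overlap, and the log2 fold change was 0.69 ± 0.06 (adjusted p = 1.09e-10). With piericidin it fell by -0.23 ± 0.06 (adjusted p = 0.00221), which was not called without the samples numbered 1 (-0.17, adjusted p = 0.0595). Bid overlaps Bcl2l13 on the opposite strand, and Bcl2l13 averaged 691 counts, so part of its signal may be shared.

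Bmf, below the count filter here, went from a sum of 23 counts over the 3 DMSO libraries to 0 over the 3 piericidin and 0 over the 3 antimycin libraries. With a floor of 3 counts over the group and the DMSO sum taken as exact, the bound was 6.74-fold lower with piericidin and 7.06-fold lower with antimycin. With oligomycin it had 2 counts, a ratio to DMSO of 0.0913 (95% counting interval 0.0104 to 0.370). The oligomycin interval includes counting error in the DMSO sum, which the bounds for piericidin and antimycin leave out, so they are not comparable. None of these values covers the spread between samples.

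The cell cycle markers moved with these treatments. Their summed level was 998 to 1050 CPM with piericidin, 734 to 766 with antimycin and 968 to 1009 with oligomycin, below the 1244 to 1291 of DMSO. The summed level of 8 myotube markers rose from 17.4 to 22.8 CPM with DMSO to 83.7 to 92.4 with antimycin. All 3 luciferase DMSO samples had outer-well codes, against 1, 0 and 1 of the 3 samples with piericidin, antimycin and oligomycin. The part of these differences in the members' responses was not tested, except that the fit with plate position kept 15 of the 17 calls.

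Since each inhibitor stops a different step, they were also set against each other, in 3 comparisons chosen after the data were seen. Bcl2l1 separated all 3: it was higher with antimycin than with piericidin by 1.09 ± 0.07 (adjusted p = 2.2e-13), and lower than with oligomycin by -1.56 ± 0.07 (adjusted p = 3.6e-17) for piericidin and -0.48 ± 0.07 (adjusted p = 6.99e-07) for antimycin. In all, 4 members were called between antimycin and piericidin (37.2% of all genes), 4 between piericidin and oligomycin (39.2%) and 5 between antimycin and oligomycin (50%). DESeq2 called 7 in the last of these, adding Mcl1 (-0.32, adjusted p = 0.0409) and Bcl2l11 (-0.56, adjusted p = 0.0478), and DESeq2's size factors also added both (adjusted p = 0.0398 and 0.0427). With those size factors Mcl1 was also called between antimycin and piericidin (-0.33, adjusted p = 0.0493). Bok was higher with antimycin than with piericidin by 0.62 ± 0.06 (adjusted p = 2.71e-09) and than with oligomycin by 0.54 ± 0.06 (adjusted p = 1.85e-08). Bcl2l2 was lower with antimycin than with piericidin by -0.65 ± 0.23 (adjusted p = 0.0244), but the call was lost without the count filter (adjusted p = 0.135), with only the groups compared (adjusted p = 0.123) and without the samples numbered 1 (adjusted p = 0.215) or 2 (adjusted p = 0.378). Bid was higher by 0.16 ± 0.06 (adjusted p = 0.0445) in that comparison, a call lost in 6 of the other fits (adjusted p from 0.0714 to 0.407). Bad was lower with antimycin than with oligomycin by -0.32 ± 0.10 (adjusted p = 0.0084), lost in 4 of the other fits (adjusted p from 0.058 to 0.168). Bad did not differ beyond the threshold between piericidin and antimycin (-0.16, 95% interval -0.36 to 0.04) or piericidin and oligomycin (-0.16, 95% interval -0.36 to 0.03).

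The lines expressing LbNOX, mitoLbNOX or NDI1 ask whether oxidizing NADH, in the cytosol or the matrix, or bypassing complex I changes these responses. Under DMSO the lines did not differ from the luciferase line at any of the 9 members by edgeR (2, 1 and 2 members for LbNOX, mitoLbNOX and NDI1 had an unadjusted p under 0.05, and DESeq2 called 0). Of all genes, 2.68%, 1.77% and 4.61% were called. Bcl2l11 nevertheless stood lower in each, at 5.81, 6.02 and 6.80 CPM in LbNOX cells, at 8.30, 7.13 and 6.19 in mitoLbNOX cells and at 6.06 and 7.92 in NDI1 cells. None of these samples reached the lowest luciferase sample, with log2 differences of -0.55 ± 0.22 (adjusted p = 0.248), -0.33 ± 0.22 (adjusted p = 0.608) and -0.39 ± 0.24 (adjusted p = 0.509).

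With piericidin, the falls of Bcl2l1, Bok, Bcl2l11, Bid and Bad seen in luciferase cells were smaller or absent in all 3 lines. Of the 9 members, 1 was called in LbNOX cells (Bok, 0.23 ± 0.06, adjusted p = 0.0138), against 8.87% of all genes. In mitoLbNOX cells 1 was called (Bcl2l1, 0.26 ± 0.07, adjusted p = 0.00939), against 11.2% of all genes. In NDI1 cells edgeR called 0, with 0 at an unadjusted p under 0.05 and 0 by DESeq2 (0.00835% of all genes). The Bok call was lost without the samples numbered 1 (0.20, adjusted p = 0.151) or 3 (0.22, adjusted p = 0.117) and with only the groups compared (0.24, adjusted p = 0.0507), and the Bcl2l1 call with any number left out (adjusted p from 0.0576 to 0.188) and without the count filter (adjusted p = 0.105). In mitoLbNOX cells Bid was called with plate position in the model (0.23, adjusted p = 0.00919).

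**Figure D2:**
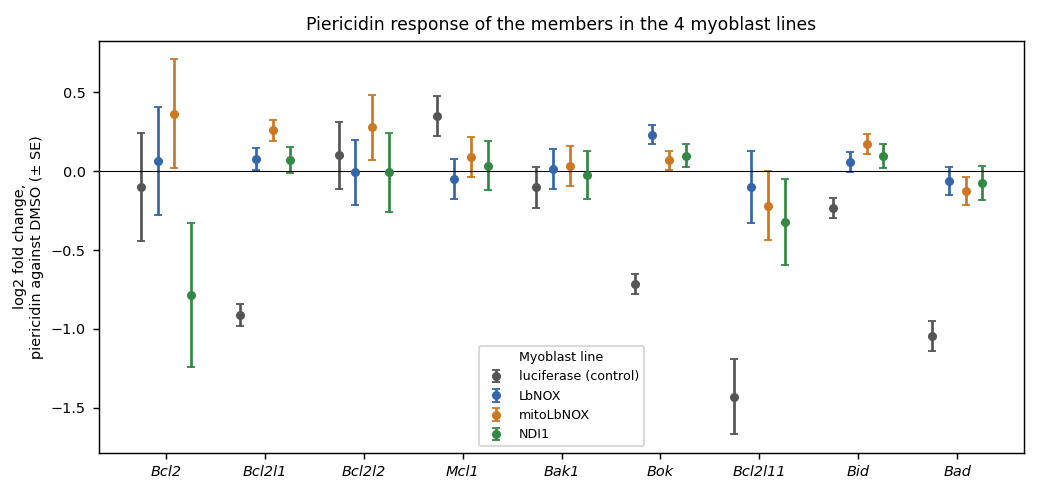
Log2 fold change with piericidin against DMSO in the same line (± SE) for 9 members, in luciferase, LbNOX, mitoLbNOX (n = 3 each) and NDI1 (n = 2) myoblasts. For Bcl2l1, Bok, Bcl2l11, Bid and Bad the luciferase value lies below those of the other lines.

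The difference in response was tested as an interaction. In each of the 3 lines the same 5 members were called for piericidin, all with a response above that of luciferase cells, when 44.3%, 42.8% and 42.7% of all genes were called for LbNOX, mitoLbNOX and NDI1 and 22.3%, 21.5% and 21.2% were called higher. All interactions share the luciferase samples. For Bcl2l1 the difference was 0.99 ± 0.10 (adjusted p = 1.12e-09), 1.17 ± 0.10 (adjusted p = 3.67e-11) and 0.99 ± 0.11 (adjusted p = 1.01e-08). Its level in piericidin was 56.1, 60.3 and 52.99 CPM in LbNOX cells, 63.7, 71.3 and 64.6 in mitoLbNOX cells and 59.3 and 55.9 in NDI1 cells, all above the luciferase samples. For Bad the difference was 0.98 ± 0.13 (adjusted p = 3.07e-07), 0.92 ± 0.13 (adjusted p = 9.24e-07) and 0.97 ± 0.14 (adjusted p = 2.23e-06), and its level with piericidin was 27.7 to 33.7 CPM across the lines.

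Bok differed by 0.95 ± 0.09, 0.79 ± 0.09 and 0.82 ± 0.10, with adjusted p of 4.95e-08 or lower. Bcl2l11 differed by 1.33 ± 0.33 (adjusted p = 0.00141), 1.21 ± 0.32 (adjusted p = 0.00306) and 1.11 ± 0.36 (adjusted p = 0.0141). The NDI1 value fell to 0.58 (adjusted p = 0.438) without the samples numbered 1, and the mitoLbNOX value to 0.88 (adjusted p = 0.0509) without those numbered 2. Bid differed by 0.29 ± 0.09, 0.41 ± 0.09 and 0.33 ± 0.10, of which the LbNOX call was lost without the samples numbered 1 (0.24, adjusted p = 0.0797) and the NDI1 call without those numbered 2 (0.30, adjusted p = 0.188). Without the count filter, the Bid calls for LbNOX (adjusted p = 0.143) and NDI1 (adjusted p = 0.126) were also lost.

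With antimycin, Bad was called in mitoLbNOX cells and missed the threshold in LbNOX cells. In LbNOX cells Bad was at 25.9, 28.1 and 28.0 CPM, against 33.7, 32.0 and 31.9 with DMSO, a log2 fold change of -0.21 ± 0.09 that missed the threshold (adjusted p = 0.054), though it was called with DESeq2's size factors (-0.23, adjusted p = 0.0372), with only the groups compared (-0.24, adjusted p = 0.0457) and with plate position (-0.24, adjusted p = 0.0317). In mitoLbNOX cells it was at 15.6, 15.8 and 18.5 CPM and fell by -0.95 ± 0.09 (adjusted p = 9.5e-10). The response of LbNOX cells differed from luciferase by 0.99 ± 0.13 (adjusted p = 2.56e-07), and that of mitoLbNOX cells by 0.25 ± 0.13 (adjusted p = 0.152). The difference between the LbNOX and mitoLbNOX responses was not tested. Bcl2l11 was at 8.75, 8.79 and 8.37 CPM with antimycin in LbNOX cells, above their DMSO samples, a fold change of 0.51 ± 0.22 (adjusted p = 0.0567) that differed from the luciferase response by 1.33 ± 0.32 (adjusted p = 0.000753). The fold change itself was called with only the groups compared (0.49, adjusted p = 0.0387).

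In all, 3 members were called with antimycin in LbNOX cells (46.1% of all genes) and 3 in mitoLbNOX cells (47.7%), where Bcl2l2 was also called with a replicate block (0.49, adjusted p = 0.0333) and with plate position (0.57, adjusted p = 0.0177). In LbNOX cells Bid was lower by -0.21 ± 0.06 (adjusted p = 0.0088), lost without the samples numbered 2 (-0.15, adjusted p = 0.229). In mitoLbNOX cells Bok was higher by 0.20 ± 0.06 (adjusted p = 0.00688), lost without the samples numbered 1 (adjusted p = 0.0506) or 3 (0.13, adjusted p = 0.179). Bcl2l1 rose in both, by 0.32 ± 0.07 (adjusted p = 0.000294) and 0.43 ± 0.07 (adjusted p = 4.3e-06). Bcl2 fell in LbNOX cells from 38, 40 and 26 counts to 11, 10 and 14, a fold change of -1.14 ± 0.38 (adjusted p = 0.0138) that was lost without the samples numbered 1 (-0.90, adjusted p = 0.0534) or 2 (-1.21, adjusted p = 0.0742) and without the count filter (adjusted p = 0.0553). Of interactions with antimycin, 2 were called for LbNOX (51.5% of all genes) and 3 for mitoLbNOX (31.7%), where Bcl2l2 differed by 1.03 ± 0.30 (adjusted p = 0.00988). The Bcl2l2 call was lost without the samples numbered 2 (0.79, adjusted p = 0.202) and without the count filter (adjusted p = 0.0528), and that of Bok, 0.30, without those numbered 3 (0.21, adjusted p = 0.185).

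With oligomycin, 4 members were called in LbNOX cells (35.2% of all genes), in the directions seen in luciferase cells. Bcl2l1 rose by 0.25 ± 0.07 (adjusted p = 0.00447) and Bid by 0.31 ± 0.06 (adjusted p = 0.000251), while Bok fell by -0.48 ± 0.06 (adjusted p = 2.37e-07) and Bad by -0.54 ± 0.09 (adjusted p = 2.16e-05). The Bcl2l1 call was lost without the samples numbered 1 (adjusted p = 0.109) or 3 (adjusted p = 0.0754) and without the count filter (adjusted p = 0.0996). The rises were smaller than in luciferase cells by -0.40 ± 0.10 (adjusted p = 0.0066) for Bcl2l1 and -0.38 ± 0.09 (adjusted p = 0.00544) for Bid, the 2 interactions called (7.98% of all genes). Both were lost without the samples numbered 2 (-0.26, adjusted p = 0.259, and -0.29, adjusted p = 0.296) and without the count filter (adjusted p = 0.0752 and 0.0549), and that of Bcl2l1 also without those numbered 3 (adjusted p = 0.111). The responses of Bok and Bad were not shown to differ (0.15, adjusted p = 0.344, and 0.34, adjusted p = 0.123).

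With chloramphenicol for 48 hr, groups held 2 samples. In luciferase cells 1 member was called, Bok, which went from 162 and 166 CPM to 124 and 128, a fold change of -0.33 ± 0.05 (adjusted p = 0.00607; 8.45% of all genes). Without 1 chloramphenicol library, numbered 1, the adjusted p was 0.0507. In LbNOX cells edgeR called 0 (1 at an unadjusted p under 0.05, 0 by DESeq2; 0.931% of all genes), and Bok was at 153 and 152 CPM against 170 and 171. Bcl2l11 was at 5.20 and 4.56 CPM with chloramphenicol against 6.75 and 7.42 in LbNOX cells (-0.51 ± 0.22, adjusted p = 0.39), and at 11.2 and 9.97 CPM against 9.51 and 7.57 in luciferase cells (0.37 ± 0.20, adjusted p = 0.334). In each line its groups did not overlap, and neither difference passed the test. Bcl2l2 was at 7.26 and 6.99 CPM against 4.63 and 5.49 in LbNOX cells (0.53 ± 0.28, adjusted p = 0.453). Bad was at 28.5 and 32.9 CPM with chloramphenicol against 33.5 and 32.6 in luciferase cells (-0.05, 95% interval -0.27 to 0.16).

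In untransduced myotubes, Bcl2l11 rose with each respiratory inhibitor and with the uncoupler. Piericidin and antimycin had lowered it in luciferase myoblasts, where oligomycin gave no call and BAM15 was not used. Bad, which fell with every inhibitor in luciferase myoblasts, was called with none of the treatments here. Of 10 members, 2 were called with piericidin (8.99% of all genes), 2 with antimycin (12.9%), 4 with oligomycin (33.3%), 4 with BAM15 (25.4%) and 2 at 5% oxygen (22.1%). These comparisons share their DMSO samples.

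**Figure D3:**
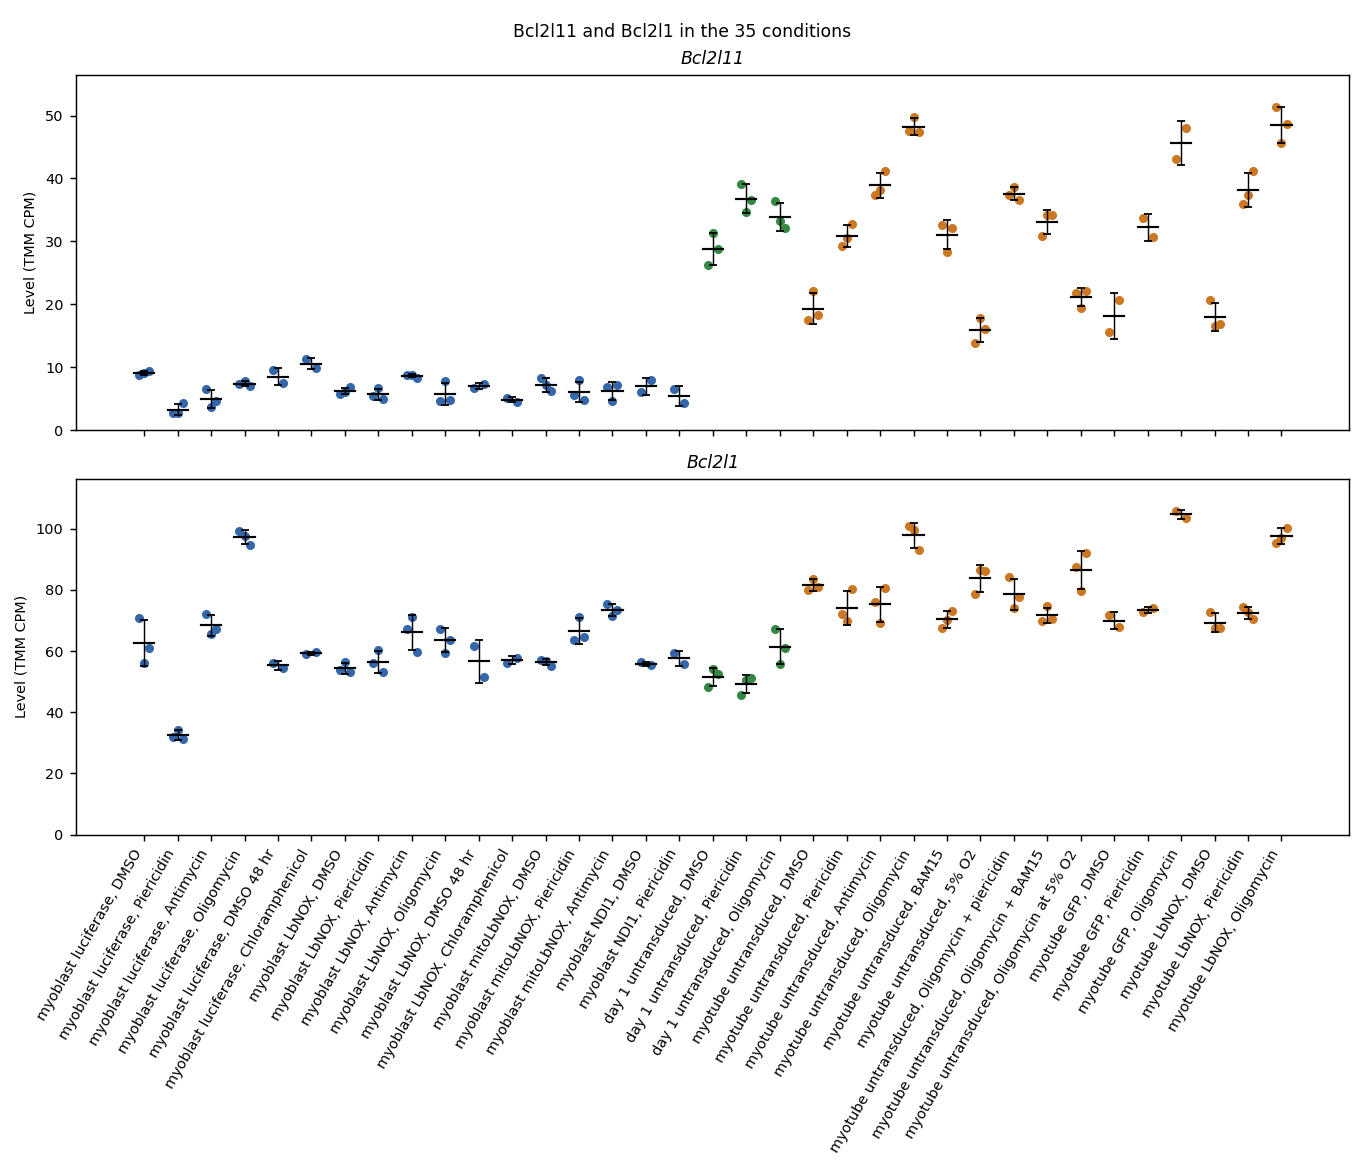
Level (TMM CPM) of Bcl2l11 and Bcl2l1 in all 35 conditions, with myoblasts in blue, day 1 cells in green and myotubes in orange. Points are samples, lines are means and error bars are SD (n = 2 or 3). Mean Bcl2l11 levels ran from 3.27 CPM in luciferase myoblasts with piericidin to 48.5 CPM in LbNOX myotubes with oligomycin.

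Bcl2l11 was at 29.3, 30.5 and 32.7 CPM with piericidin, at 37.4, 38.1 and 41.2 with antimycin, at 47.5, 49.8 and 47.4 with oligomycin and at 32.6, 28.4 and 32.2 with BAM15. Each set lay above all DMSO samples. The log2 fold changes were 0.68 ± 0.09 (adjusted p = 2.11e-05), 1.01 ± 0.09 (adjusted p = 1.67e-08), 1.32 ± 0.09 (adjusted p = 2.38e-11) and 0.69 ± 0.09 (adjusted p = 5.27e-06). At 5% oxygen it was at 13.9, 17.8 and 16.1 CPM and overlapped the DMSO samples, and its call of -0.28 ± 0.10 (adjusted p = 0.0397) was lost with any replicate number left out (adjusted p from 0.12 to 0.134), with DESeq2 (adjusted p = 0.0581), without the count filter (adjusted p = 0.171) and with only the groups compared (adjusted p = 0.159).

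Bok rose with piericidin to 124, 114 and 118 CPM, by 0.46 ± 0.06 (adjusted p = 2.77e-05), and with antimycin to 105, 104 and 111, by 0.31 ± 0.06 (adjusted p = 0.00161). Both sets lay above all DMSO samples, though that with antimycin was not called without the samples numbered 2 (0.32, adjusted p = 0.0558) or 3 (0.23, adjusted p = 0.0844). With oligomycin Bok was at 72.1, 79.1 and 73.4 CPM, below DMSO by -0.21 ± 0.06 (adjusted p = 0.0159). That call was lost with plate position in the model (-0.18, adjusted p = 0.0584), with only the groups compared (adjusted p = 0.0507), without the count filter (adjusted p = 0.0539) and without the samples numbered 1 (-0.15, adjusted p = 0.161) or 2 (-0.25, adjusted p = 0.0654).

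Bcl2l1 rose with oligomycin to 101, 99.6 and 93.1 CPM, by 0.27 ± 0.07 (adjusted p = 0.00382), but not without the samples numbered 1 (0.22, adjusted p = 0.0936). It was lower with BAM15 by -0.21 ± 0.07 (adjusted p = 0.0309), lost with any number left out (adjusted p from 0.0504 to 0.144) and without the count filter (adjusted p = 0.0677). Mcl1 was lower with oligomycin, at 20.4, 24.9 and 20.7 CPM against 28.0, 26.6 and 29.1, by -0.34 ± 0.12 (adjusted p = 0.0353). It was not called with plate position (adjusted p = 0.062) or without the samples numbered 1 (-0.29, adjusted p = 0.109) or 3 (-0.26, adjusted p = 0.254).

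Bid fell with BAM15 to 39.9, 47.5 and 44.1 CPM, by -0.42 ± 0.09 (adjusted p = 0.000718), and at 5% oxygen to 41.1, 43.9 and 44.6, by -0.45 ± 0.09 (adjusted p = 0.00031). Both sets lay below the DMSO samples, at 57.7, 57.0 and 62.4. At 5% oxygen the summed cell cycle markers were also lower, at 52.0 to 63.9 CPM against 148 to 170, and their part in the result was not tested. Bmf rose with BAM15 to 12.2, 10.2 and 9.99 CPM, by 0.88 ± 0.21 (adjusted p = 0.00324), a call lost without the samples numbered 1 (0.63, adjusted p = 0.0781) or 2 (1.01, adjusted p = 0.0561).

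**Figure D4:**
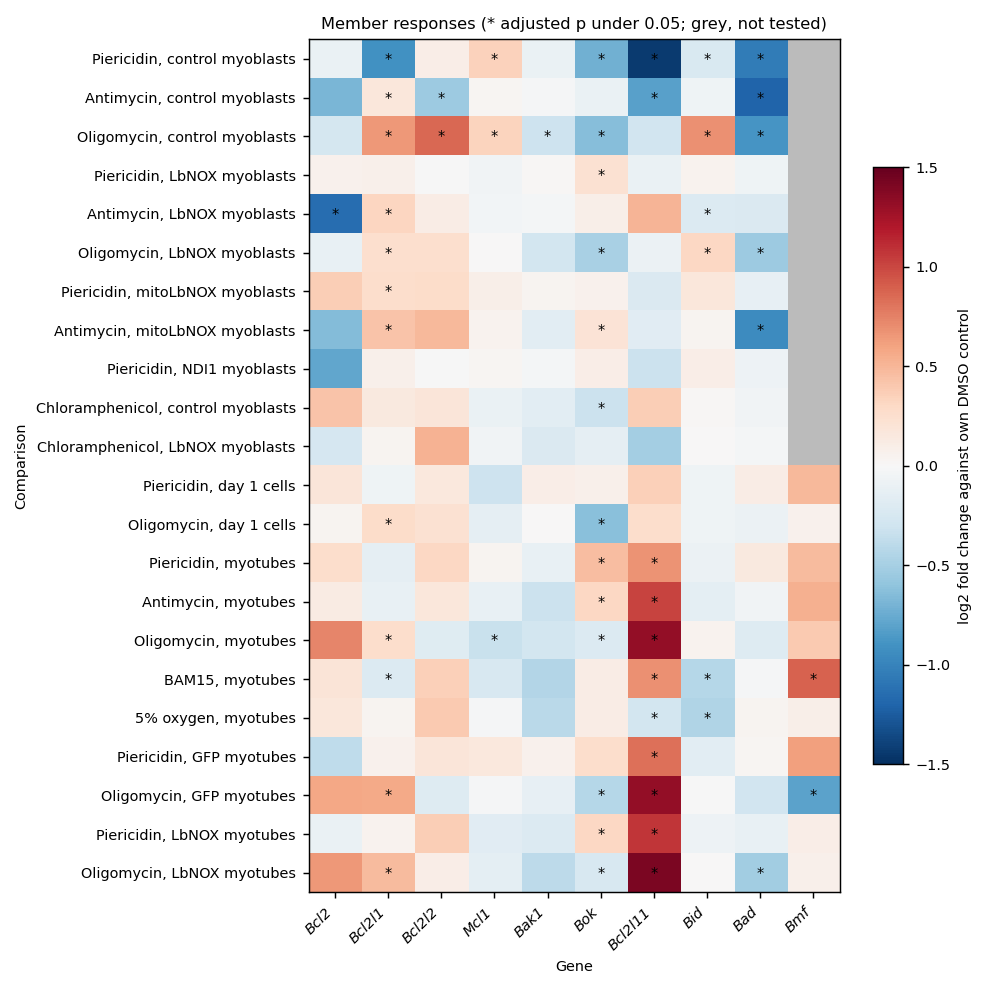
Log2 fold change of each member against its own DMSO control in 22 comparisons, from -1.5 (blue) to 1.5 (red). Asterisks mark adjusted p under 0.05 (edgeR), and grey cells were not tested. Bcl2l11 is lower (blue, called) with piericidin and antimycin in luciferase myoblasts and higher (red, called) with every inhibitor in myotubes, and Bad is blue mainly in myoblasts.

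Oligomycin in myotubes was then combined with treatments that change respiration or the membrane potential. Bcl2l11 was lower with each of the 3 than with oligomycin alone. It was at 37.4, 38.6 and 36.6 CPM with added piericidin, at 30.9, 34.2 and 34.1 with added BAM15 and at 21.9, 19.4 and 22.2 at 5% oxygen, all below the oligomycin samples. The log2 differences were -0.37 ± 0.09 (adjusted p = 0.00294), -0.55 ± 0.09 (adjusted p = 3.1e-05) and -1.18 ± 0.09 (adjusted p = 2.1e-10). Of the 10 members, 5, 4 and 3 were called in these comparisons, when 20.9%, 26.1% and 33.3% of all genes were called.

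**Figure D5:**
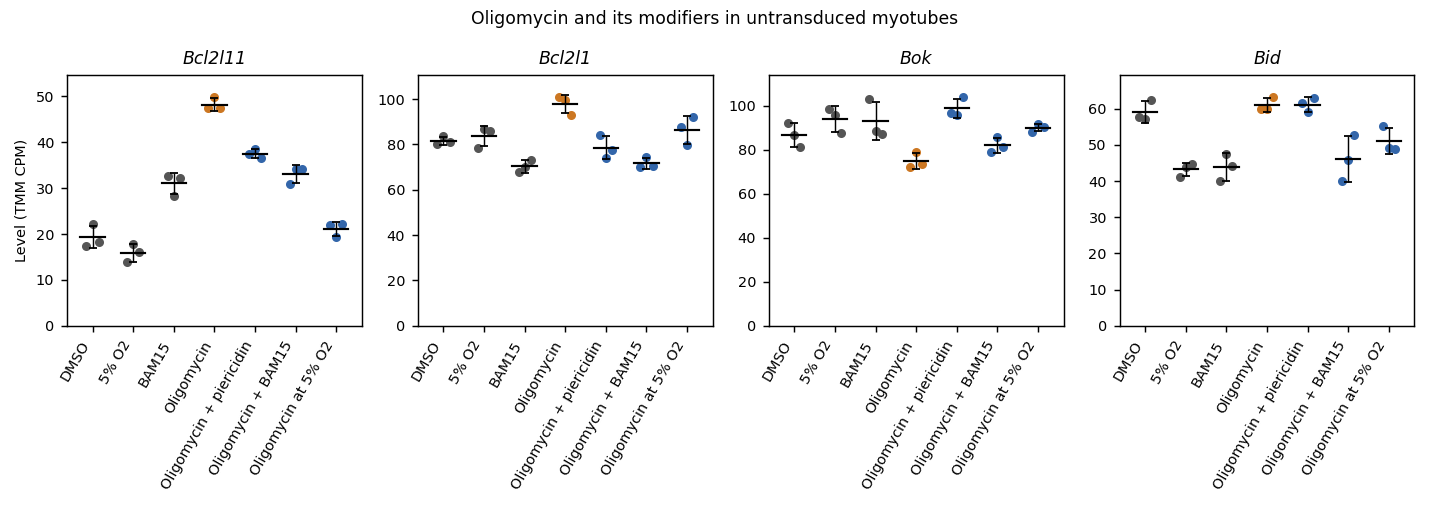
Level (TMM CPM) of Bcl2l11, Bcl2l1, Bok and Bid in untransduced myotubes with DMSO, 5% oxygen or BAM15 (grey), oligomycin (orange), and oligomycin with piericidin, BAM15 or 5% oxygen (blue). Points are samples, lines are means and error bars are SD (n = 3). Mean Bcl2l11 was 48.2 CPM with oligomycin alone and 21.2 CPM with oligomycin at 5% oxygen.

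Bcl2l1 was lower than with oligomycin alone by -0.32 ± 0.07 (adjusted p = 0.00117) with piericidin and by -0.45 ± 0.07 (adjusted p = 1.64e-05) with BAM15, and by -0.17 ± 0.07 at 5% oxygen, where the threshold was missed (adjusted p = 0.0653) but not with DESeq2's size factors (-0.19, adjusted p = 0.036) or DESeq2 (-0.19, adjusted p = 0.0364). Bok was higher by 0.39 ± 0.06 (adjusted p = 7.04e-05) with piericidin and 0.28 ± 0.07 (adjusted p = 0.00165) at 5% oxygen. Bid was lower by -0.41 ± 0.09 (adjusted p = 0.000758) with BAM15. At 5% oxygen Bid was lower by -0.24 ± 0.09 (adjusted p = 0.0316), lost with plate position (-0.22, adjusted p = 0.0516) and without the samples numbered 2 (-0.25, adjusted p = 0.148) or 3 (-0.21, adjusted p = 0.115). Bad was higher with piericidin by 0.34 ± 0.08 (adjusted p = 0.00242) and with BAM15 by 0.30 ± 0.08 (adjusted p = 0.00514). Both Bad calls were lost with only the groups compared (adjusted p = 0.0563 and 0.0897), without the count filter (adjusted p = 0.0579 and 0.145) and without the samples numbered 2 (0.23, adjusted p = 0.123, and 0.24, adjusted p = 0.0741), and the BAM15 call also without those numbered 3 (adjusted p = 0.0742). Bcl2l2 was higher with piericidin by 0.56 ± 0.20 (adjusted p = 0.0475), a call lost with DESeq2 (adjusted p = 0.0537), with a replicate block (adjusted p = 0.0595), without the count filter (adjusted p = 0.122), with only the groups compared (adjusted p = 0.108) and without the samples numbered 2 (0.32, adjusted p = 0.534) or 3 (0.53, adjusted p = 0.169).

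Myotubes carrying adenovirus gave a second set of cells. LbNOX and GFP myotubes did not differ at any member under DMSO by edgeR, with 0 members at an unadjusted p under 0.05 and 0 by DESeq2 (0.0242% of all genes). Bcl2l11 rose in each of the 4 comparisons. It went from 15.6 and 20.8 CPM to 33.8 and 30.7 with piericidin and to 43.1 and 48.0 with oligomycin in GFP myotubes, and from 20.6, 16.6 and 16.8 to 36.0, 37.4 and 41.2 and to 51.4, 45.7 and 48.6 in LbNOX myotubes. Treated and DMSO samples did not overlap. The fold changes were 0.83 ± 0.14 (adjusted p = 0.00447) and 1.32 ± 0.14 (adjusted p = 6.21e-06) with GFP, and 1.08 ± 0.11 (adjusted p = 3.58e-05) and 1.42 ± 0.11 (adjusted p = 2.2e-07) with LbNOX. The call with piericidin in GFP cells was lost without the samples numbered 1 (0.57, adjusted p = 0.122) and with only the groups compared (0.82, adjusted p = 0.206).

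With oligomycin Bcl2l1 rose by 0.57 ± 0.06 (adjusted p = 5.42e-06) in GFP myotubes, from 71.8 and 67.9 to 106 and 104 CPM, and by 0.48 ± 0.05 (adjusted p = 2.66e-06) in LbNOX myotubes, from 72.8, 67.5 and 67.6 to 95.2, 97.0 and 100.3 CPM. In all, 1 and 4 members were called with piericidin and oligomycin in GFP myotubes (3.09% and 25.9% of all genes), and 2 and 4 in LbNOX myotubes (6.78% and 32.0%). With a replicate block Bcl2 was also called higher with oligomycin in LbNOX myotubes (0.66, adjusted p = 0.0481). Bok fell with oligomycin by -0.43 ± 0.09 (adjusted p = 0.00256) in GFP and -0.24 ± 0.07 (adjusted p = 0.0181) in LbNOX myotubes and rose with piericidin by 0.31 ± 0.07 (adjusted p = 0.0185) in LbNOX myotubes. These Bok calls were lost in GFP cells without the samples numbered 1 (adjusted p = 0.0848), and in LbNOX cells without those numbered 1 (adjusted p = 0.086) or 3 (adjusted p = 0.155) for oligomycin and 2 (adjusted p = 0.0813) or 3 (adjusted p = 0.118) for piericidin. Bad fell with oligomycin in LbNOX myotubes by -0.52 ± 0.10 (adjusted p = 0.00142). Bmf was lower with oligomycin in GFP myotubes by -0.80 ± 0.26 (adjusted p = 0.0327), a call lost with DESeq2 (adjusted p = 0.0681), with a replicate block (adjusted p = 0.053), without the count filter (adjusted p = 0.098), with only the groups compared (adjusted p = 0.087) and with any number left out (adjusted p from 0.0655 to 0.22). Whether the responses differed between GFP and LbNOX myotubes was not tested.

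Day 1 cells, at an intermediate stage, received piericidin or oligomycin, and their responses were not tested against those of other states. With piericidin edgeR called 0 of 10 members (3 at an unadjusted p under 0.05, 0 by DESeq2; 2.75% of all genes). Bcl2l11 was at 39.2, 34.7 and 36.5 CPM, above all DMSO samples, with a fold change of 0.36 ± 0.09 (adjusted p = 0.059). With oligomycin 2 were called (20.7% of all genes). Bok fell to 69.7, 71.1 and 64.3 CPM from 104, 106 and 113, by -0.63 ± 0.08 (adjusted p = 0.000133). Bcl2l1 rose by 0.28 ± 0.08 (adjusted p = 0.0323), a call lost with a replicate block (adjusted p = 0.05), without the count filter (adjusted p = 0.0515) and without the samples numbered 1 (0.17, adjusted p = 0.288) or 3 (0.29, adjusted p = 0.159). All day 1 samples had codes read as outer wells, so plate position could not be tried.

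Whether myotubes responded differently from luciferase myoblasts was tested as an interaction in 1 fit of both states. The Bcl2l11 response was higher in myotubes by 2.15 ± 0.20 (adjusted p = 5.5e-10) for piericidin, 1.87 ± 0.19 (adjusted p = 2.86e-09) for antimycin and 1.61 ± 0.18 (adjusted p = 7.45e-08) for oligomycin. That of Bad was higher by 1.23 ± 0.14 (adjusted p = 2.28e-08), 1.19 ± 0.14 (adjusted p = 4.39e-08) and 0.69 ± 0.14 (adjusted p = 0.000357). Bok differed in the same direction, by 1.22 ± 0.10, 0.45 ± 0.09 and 0.43 ± 0.10. The antimycin value fell to 0.29 (adjusted p = 0.0616) without the samples numbered 3 and the oligomycin value to 0.33 (adjusted p = 0.0518) without those numbered 2. Of the 9 members other than Bmf, 4, 3 and 7 were called for the 3 inhibitors, when 46.5%, 47.9% and 29.0% of all genes were called. Bcl2l2 was also called for antimycin with only the groups compared (0.76, adjusted p = 0.0389) and with a replicate block (0.75, adjusted p = 0.0488).

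For Bcl2l1 the interaction was 0.83 ± 0.11 (adjusted p = 6.84e-07) with piericidin and, in the other direction, -0.38 ± 0.11 (adjusted p = 0.00958) with oligomycin. The oligomycin call was lost without the samples numbered 2 (-0.30, adjusted p = 0.116) or 3 (-0.34, adjusted p = 0.136). Mcl1 and Bid also responded lower in myotubes to oligomycin, by -0.66 ± 0.16 (adjusted p = 0.00174) and -0.64 ± 0.09 (adjusted p = 6.67e-06). The Mcl1 value was -0.47 (adjusted p = 0.0947) without the samples numbered 1. The states differ in transduction, doxycycline and serum as well, which cannot be told apart from differentiation.

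Other genes of the pathway give the setting of these changes. A list of 15 further BCL2 family genes held 6 that were tested in myoblasts. Of these, 2, 3 and 2 were higher and 2, 2 and 2 lower with piericidin, antimycin and oligomycin in luciferase cells, beside the 61.7%, 63.2% and 50.8% of all genes called. Pmaip1 (NOXA), a BH3-only antagonist of MCL-1, rose from 7.09 CPM to 78.2, 207 and 16.7. Bax, an effector, rose by 0.32 ± 0.07, 0.65 ± 0.07 and 0.31 ± 0.07. Bnip3 and Bnip3l, which act in mitophagy, fell with each, Bnip3l by -0.71, -0.77 and -0.94.

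A list of 19 genes of the caspase cascade and its inhibitors held 18 that were tested in myoblasts. Its counts and medians thus mix genes that promote apoptosis with genes that restrain it, such as Xiap and Birc5. With piericidin 4 were higher and 9 lower, with antimycin 2 and 13, and with oligomycin 2 and 7, with median log2 fold changes of -0.46, -0.65 and -0.21. That is 13, 15 and 9 of 18 called, beside the same background, which the oligomycin count does not exceed. Casp9, the initiator caspase of the apoptosome, went from 28.8 to 9.11, 6.59 and 11.8 CPM. Casp6, an executioner, went from 26.2 to 5.18, 5.67 and 7.13 CPM. Among the genes that were higher, Htra2 rose by 0.42 ± 0.07 with piericidin and 0.30 ± 0.07 with antimycin. Cycs rose by 0.23 ± 0.08 with piericidin, and Diablo by 0.50 ± 0.09 and Aifm1 by 0.24 ± 0.07 with oligomycin. In LbNOX cells 1 was higher and 3 lower with piericidin (8.87% of all genes called), 2 were higher and 2 lower with antimycin (46.1%), and 4 were higher and 7 lower with oligomycin (35.2%). In mitoLbNOX cells 0 were higher and 3 lower with piericidin (11.2%), and 1 was higher and 8 lower with antimycin (47.7%), with Casp6 lower by -1.04 ± 0.16 and Casp9 by -0.73 ± 0.11. In NDI1 cells the 18 had a median log2 fold change of -0.07 with piericidin.

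In myotubes 16 of the caspase cascade list were tested, of which 1 was higher with each of the 3 inhibitors, while 4 were lower given oligomycin and 0 given piericidin or antimycin. Of all genes 8.99%, 12.9% and 33.3% were called with piericidin, antimycin and oligomycin, and the shares of the list called were no higher than these. The gene that was higher was Htra2, a mitochondrial protease, by 0.28 ± 0.08, 0.33 ± 0.08 and 0.62 ± 0.08. Of the other BCL2 family list 6 were tested, of which 0, 0 and 1 were higher and 2, 2 and 2 lower. Bnip3 fell by -1.06 ± 0.09, -0.97 ± 0.09 and -1.36 ± 0.10, and Bnip3l by -0.41 ± 0.06, -0.45 ± 0.06 and -0.37 ± 0.06. Pmaip1 rose with oligomycin, by 0.60 ± 0.07 (adjusted p = 3e-07). Pmaip1 was higher in myotubes than in luciferase myoblasts under DMSO, at 80.4 against 7.09 CPM, and Birc5, a mitotic inhibitor of apoptosis, was lower, at 15.1 against 154 CPM. The cell cycle markers also fell between these states, and their part in the Birc5 difference was not tested.

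Across the 35 conditions the members differed in how far they moved. Mean levels of Mcl1 ranged 1.72-fold, from 17.5 ± 0.77 CPM in day 1 cells with piericidin to 30.1 ± 4.42 in luciferase myoblasts with oligomycin. The next condition, luciferase myoblasts with piericidin at 30.1 ± 2.60, lay within that spread. Bcl2l11 ranged 14.8-fold, with its 2 highest conditions, LbNOX and untransduced myotubes with oligomycin, at 48.5 ± 2.84 and 48.2 ± 1.37 CPM, within each other's spread. Bcl2l1 ranged 3.23-fold and was lowest in luciferase myoblasts with piericidin. Bid ranged 3.01-fold, and its highest condition, luciferase myoblasts with oligomycin at 130 ± 2.16 CPM, was above the next, LbNOX myoblasts with oligomycin at 91.5 ± 3.37. Bok ranged 3.22-fold, Bad 2.37-fold, Bcl2l2 2.72-fold and Bak1 2.17-fold. Bcl2, at a median of 3.46 CPM, ranged 5.57-fold, from 1.22 ± 0.22 in LbNOX myoblasts with antimycin to 6.80 ± 0.49 in GFP myotubes with oligomycin (SD).

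Likeness of pattern was measured as Pearson's r over the 25 treated-minus-control log2 differences, as a description. These differences share control samples and libraries. Bad was most like Bcl9 (0.96), B3galnt1 (0.95) and Nfic (0.95). No likeness is given for Bmf, whose differences in myoblasts rest on few or 0 counts and so on the prior count. Bcl2l11 was most like Afmid (0.89), Emb (0.88) and Gyg (0.88). Bok was most like Myl9 (0.87), Bcl2l1 like Cops7a (0.86) and Bcl2 like Syne1 (0.83). The highest values for Mcl1 (Plagl2, 0.78), Bid (Cdca7, 0.76), Bak1 (Ptms, 0.72) and Bcl2l2 (Tmem159, 0.71) were lower.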

How the data were processed

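The authors made polyA-selected Smart-seq2 libraries, demultiplexed with bcl2fastq 2.20.0.422, quantified reads with kallisto 0.44 against the mouse transcriptome (GRCm38, Ensembl) with 4 transgene sequences added, and summed transcripts to genes with tximport. They deposited these estimated counts as whole numbers without normalization. Counting did not use strand. Samples were grouped by their labels. The members and gene lists were chosen with earlier results of these data known.

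Tests used edgeR 4.0.16 (quasi-likelihood F test, TMM), with limma 3.58.1 and DESeq2 1.42.0, in R 4.3.3, and tables were made in Python 3.11.15. A gene was kept where some condition of the fit had 16 counts or more in each of its samples, and p-values were adjusted (Benjamini-Hochberg) over all genes in each of 6 fits. The SE of a log2 fold change is its size over the root of F, and 95% intervals are 1.96 SE on each side. The 44 comparisons include 3 added after the data were seen. Depth was 6458295 to 15366745 counts. Of 87 replicate pairs 0 were identical.

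All 10 members are named. From the pathway lists, up to 3 genes per direction were named, being the largest changes among genes called, with a mean of 50 counts or more and non-overlapping groups. The genes most like a member needed the same mean count, and their log2 CPM used a prior count of 2. Alternatives were DESeq2 size factors, no count filter, DESeq2's Wald test, a replicate block, plate position, a fit of only the groups compared, and leaving out each replicate number. The fitting code was also run on simulated counts, whose outcome is not given here and on which no result rests. Coordinates are from GENCODE M21 (GRCm38), and promoters from RefSeq, matched by symbol.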

Additional observations from a re-analysis of the deposited data

Results flagged for a closer look

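Each result below is a response that differed between groups by a test of the interaction itself (edgeR, adjusted p under 0.05). Log2 differences are the response in the named cells minus that in luciferase myoblasts.

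For piericidin in LbNOX myoblasts they were 0.99 for Bcl2l1, 0.95 for Bok, 1.33 for Bcl2l11, 0.29 for Bid and 0.98 for Bad. In mitoLbNOX myoblasts they were 1.17 for Bcl2l1, 0.79 for Bok, 1.21 for Bcl2l11, 0.41 for Bid and 0.92 for Bad, and in NDI1 myoblasts 0.99 for Bcl2l1, 0.82 for Bok, 1.11 for Bcl2l11, 0.33 for Bid and 0.97 for Bad. For antimycin they were 1.33 for Bcl2l11 and 0.99 for Bad in LbNOX myoblasts, and 0.25 for Bcl2l1, 1.03 for Bcl2l2 and 0.30 for Bok in mitoLbNOX myoblasts. For oligomycin in LbNOX myoblasts they were -0.40 for Bcl2l1 and -0.38 for Bid.

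In untransduced myotubes the differences for piericidin were 0.83 for Bcl2l1, 1.22 for Bok, 2.15 for Bcl2l11 and 1.23 for Bad. For antimycin they were 0.45 for Bok, 1.87 for Bcl2l11 and 1.19 for Bad. For oligomycin they were -0.38 for Bcl2l1, -1.04 for Bcl2l2, -0.66 for Mcl1, 0.43 for Bok, 1.61 for Bcl2l11, -0.64 for Bid and 0.69 for Bad. The Bcl2l2 value was not called with any replicate number left out, with adjusted p from 0.0635 to 0.0791. The Bcl2l1 value for antimycin in mitoLbNOX myoblasts was not called with DESeq2 (adjusted p = 0.0662), with plate position (0.21, adjusted p = 0.0875), with only the groups compared (adjusted p = 0.0811) without the count filter (adjusted p = 0.417), or without the samples numbered 1 (0.19, adjusted p = 0.306) or 3 (0.27, adjusted p = 0.157).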

How the results depend on the processing

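Of 139 member calls in 44 comparisons, 85 held under every alternative run for them, and 0 reversed direction under any. Both counts include 5 Bmf calls across states (2 for cell states, 3 for state interactions), where Bmf passed the filter only through the groups in which it is high. The results above leave these out, and no support is drawn from them. The counts of calls kept and lost below, with the 18 for cell states and 17 for state interactions, also include them. Calls lost were 2 with DESeq2 size factors, 6 with DESeq2's Wald test, 26 without the count filter (more genes tested), 15 with only the groups compared, 6 with plate position and 4 with a replicate block. Of 278 tests not called, 5, 3, 0, 6, 4 and 3 became called. DESeq2 size factors moved the median log2 level of the members by -0.05 to 0.05 over conditions. Replicate numbers did not pair the samples, as the mean correlation of same-numbered deviations was between -0.04 and 0.05 in each fit. The block lost calls for Bak1 (oligomycin, luciferase myoblasts), Bcl2l2 (oligomycin with piericidin, myotubes), Bmf (oligomycin, GFP myotubes) and Bcl2l1 (oligomycin, day 1 cells), and lowered the day 1 count of 2 member calls to 1, as did removing the count filter (1).

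Leaving out all samples with one replicate number or, for chloramphenicol, 1 library, which leaves fewer samples, lost 96 of 422 calls so tried. The count of member calls ran from 13 to 15 for inhibitors in luciferase myoblasts (17 with all samples), 7 to 9 for inhibitors in the other lines (12), 18 to 20 for line interactions (22), 0 to 0 for lines under DMSO (0), 9 to 10 for single treatments in myotubes (14), 8 to 12 for modifiers of oligomycin (12), 7 to 9 for transduced myotubes (11), 1 to 2 for day 1 cells (2), 14 to 15 for cell states (18), 14 to 15 for state interactions (17) and 11 to 13 for inhibitor pairs (13). For chloramphenicol, single libraries were left out, and the count was 0 to 1 (1). Groups of 2 were then left with 1 sample, assumed to vary like the others. Plate position could not be fitted in day 1 cells. Low counts limit Bcl2 and Bmf most.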
